A study of Mus musculus with 12 samples.

Results

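The FASTK family is a small group of proteins that work on RNA inside mitochondria. The members were taken by name from the gene count table of RTF2-deficient and wild-type (WT) mouse embryonic fibroblasts (MEFs), namely Tbrg4, Fastk, Fastkd1, Fastkd2, Fastkd3 and Fastkd5, which are 6 of the 24100 genes listed. Tbrg4 was chosen by its own counts, because it was higher in RTF2-deficient MEFs of both lines, so its values under that comparison are given as a description, with no test. The other 5 members were taken by family name. All 6 passed the filter on low counts, as did 14263 genes of the table.

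Mitochondrial DNA is transcribed from both strands into long precursors that are then cut, stabilized, modified and translated within the organelle. Proteins of the FASTK family, which share a C-terminal RAP domain, act after transcription, and each affects its own set of mitochondrial transcripts. TBRG4, also called FASTKD4, keeps several mitochondrial messenger RNAs stable, whereas a mitochondrial form of FASTK, first described as a kinase activated through Fas, is needed for the ND6 messenger RNA. All are encoded in the nucleus, so the counts described here are of their own messenger RNAs, and transcripts of mitochondrial DNA are not analysed here.

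The question was which transcripts change when RTF2, a protein of the replication machinery, is lost. MEFs immortalized with SV40 large T antigen came from embryos of different mothers, as 2 lines, and in each line Rtf2-/lox MEFs (RTF2-deficient) were set against littermate Rtf2+/+ MEFs (WT). Both genotypes received Cre by retrovirus 72 hrs before collection, so the controls had been exposed to Cre as well. Where Cre deletes the lox allele, a cell of the first genotype keeps no intact Rtf2. Each of the 4 groups had 3 libraries, which the study calls technical replicates. P-values from these libraries therefore measure the spread between them, and the lines are the only biological replicates. In bulk RNA, fewer cells of a type and less RNA per cell cannot be told apart.

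Library totals ranged from 39360167 to 44695002 counts. Rtf2, the gene deleted, had 44.8 to 57.8 CPM (read counts scaled to a common library size by the TMM method) in the 6 WT libraries and 5.45 to 6.66 CPM in the 6 RTF2-deficient libraries. In gene counts, remaining transcripts of the deleted allele and of cells that kept the lox allele cannot be told apart. The fibroblast markers were abundant, with 4849 to 9494 CPM of Col1a1, and their summed level overlapped between genotypes in line 1 (22880 to 29980 CPM in WT, 25040 to 31700 CPM in RTF2-deficient libraries) and was higher in RTF2-deficient libraries of line 2 (21420 to 24370 against 19120 to 21300 CPM). Several markers of other cell types were near 0, among them Epcam (at most 0.308 CPM), Ptprc (at most 0.122 CPM), Pecam1 (at most 0.113 CPM) and Ckm (0 in every library). Others of the same lists were not, such as Krt19 (up to 83.5 CPM), Cd68 (up to 8.95 CPM), Kdr (up to 15.2 CPM) and Des (up to 18.3 CPM). In the neural list Tubb3 reached 53.3 CPM and Sox2 10.9 CPM. The summed levels of the epithelial list (23.2 to 90.8 CPM in WT, 22.1 to 82.3 CPM in RTF2-deficient libraries) and the neural list (218 to 561 and 262 to 529 CPM) overlapped between genotypes in each line, most of the first coming from Krt19 and most of the last from Nes. The leukocyte list overlapped in line 1 (2.50 to 3.77 CPM in WT, 2.92 to 3.24 CPM in RTF2-deficient libraries) and was lower in RTF2-deficient libraries of line 2 (4.97 to 5.16 against 6.64 to 10.1 CPM). The endothelial list was higher in RTF2-deficient libraries of line 1 (17.6 to 21.5 against 10.7 to 14.7 CPM) through Kdr and Tek, and the muscle list was higher in those of line 2 (12.6 to 18.3 against 6.34 to 9.40 CPM). The part of these shifts in the results was not tested. WT line 2 had 91.8 to 107 CPM of the Y-linked gene Ddx3y and at most 0.132 CPM of Xist, while the other 3 groups had at least 103 CPM of Xist, so in line 2 the embryos' sex and the genotype cannot be told apart. Line 1, in which both genotypes had Xist, is free of that difference, and its values are given beside those of line 2 for the members. Interferon-stimulated genes also varied between libraries of 1 group, as described beside the members that moved with them.

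By GENCODE M21, on GRCm38 (mm10), Tbrg4 (Entrez Gene 21379) lies on the minus strand of chromosome 11 from 6615598 to 6626067 and Fastk (Entrez Gene 66587) on the minus strand of chromosome 5 from 24438440 to 24445287. The promoters of these genes are shown because they are the 2 members whose levels did not overlap between the genotypes, Tbrg4 being higher and Fastk lower in RTF2-deficient libraries. Among all genes tested, 1.56% were higher and 4.41% were lower without overlap of the 6 libraries of each genotype. Each sequence runs from 250 bases before to 50 bases after the start site given by RefSeq for GRCm38.p6, and capitals mark CCGGAAG, the core bound by ETS factors, on either strand (read as CTTCCGG on the other), and TGACGTCA, the palindromic cyclic AMP response element.
Tbrg4 promoter, chr11:6626018-6626317, minus strand: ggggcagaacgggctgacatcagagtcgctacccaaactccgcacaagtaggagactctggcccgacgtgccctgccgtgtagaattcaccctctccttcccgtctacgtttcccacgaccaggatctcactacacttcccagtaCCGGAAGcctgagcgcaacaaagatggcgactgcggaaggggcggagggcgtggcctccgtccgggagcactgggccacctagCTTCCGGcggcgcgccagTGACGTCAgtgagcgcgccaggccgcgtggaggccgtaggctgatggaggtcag
Fastk promoter, chr5:24445186-24445485, minus strand: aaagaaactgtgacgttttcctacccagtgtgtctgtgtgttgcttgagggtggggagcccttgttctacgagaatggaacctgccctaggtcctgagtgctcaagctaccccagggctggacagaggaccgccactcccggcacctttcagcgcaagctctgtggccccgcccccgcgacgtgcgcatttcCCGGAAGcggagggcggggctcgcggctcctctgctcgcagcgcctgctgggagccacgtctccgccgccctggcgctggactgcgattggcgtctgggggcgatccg
The Tbrg4 window held CCGGAAG 2 times, beginning 105 and 22 bases before the start site, and TGACGTCA once, beginning 4 bases before it. The Fastk window held CCGGAAG once, 58 bases before the start site. RefSeq's spans of the whole genes begin further upstream within these windows, at 6626084 for Tbrg4 and 24445295 for Fastk. The distances therefore hold only for the start sites used. Of the other members, Fastkd5 held CCGGAAG once, 13 bases before its start site, and Fastkd1, Fastkd2 and Fastkd3 held neither motif. Among 32851 windows of the same length from all annotated promoters, 8.86% held CCGGAAG and 1.79% held TGACGTCA on either strand. The 2 motifs do not share bases in these windows. They were chosen after the sequences were seen, and a match is a description of letters and not a site of binding.

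Tbrg4 was about 2 times as abundant in RTF2-deficient MEFs of both lines. In WT line 1 the libraries had 33.4, 39.8 and 48.0 CPM, and in RTF2-deficient line 1 they had 69.9, 85.0 and 98.2 CPM. In WT line 2 the libraries had 40.0, 45.9 and 47.2 CPM, and in RTF2-deficient line 2 they had 103, 108 and 77.1 CPM. The lowest RTF2-deficient library lay above the highest WT library, and between 1400 and 4271 reads per library stood behind these values. The log2 fold change, RTF2-deficient over WT, was 1.09 (standard error 0.115) over both lines, a fold of 2.13. It was 1.06 (standard error 0.169) in line 1 and 1.11 (standard error 0.169) in line 2, and these 2 values are those that chose the gene. Same-numbered libraries of line 1, which deviated from their groups together, gave ratios of 2.09, 2.14 and 2.05. In line 2, where they did not, the ratios were 2.57, 2.35 and 1.63, the lowest of them in the pair with RTF2-deficient line 2 replicate 3. Of the 14263 genes tested, 107 had a larger log2 fold change over both lines. This rank draws on the comparison that chose Tbrg4 and is a description only.

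**Figure D1:**
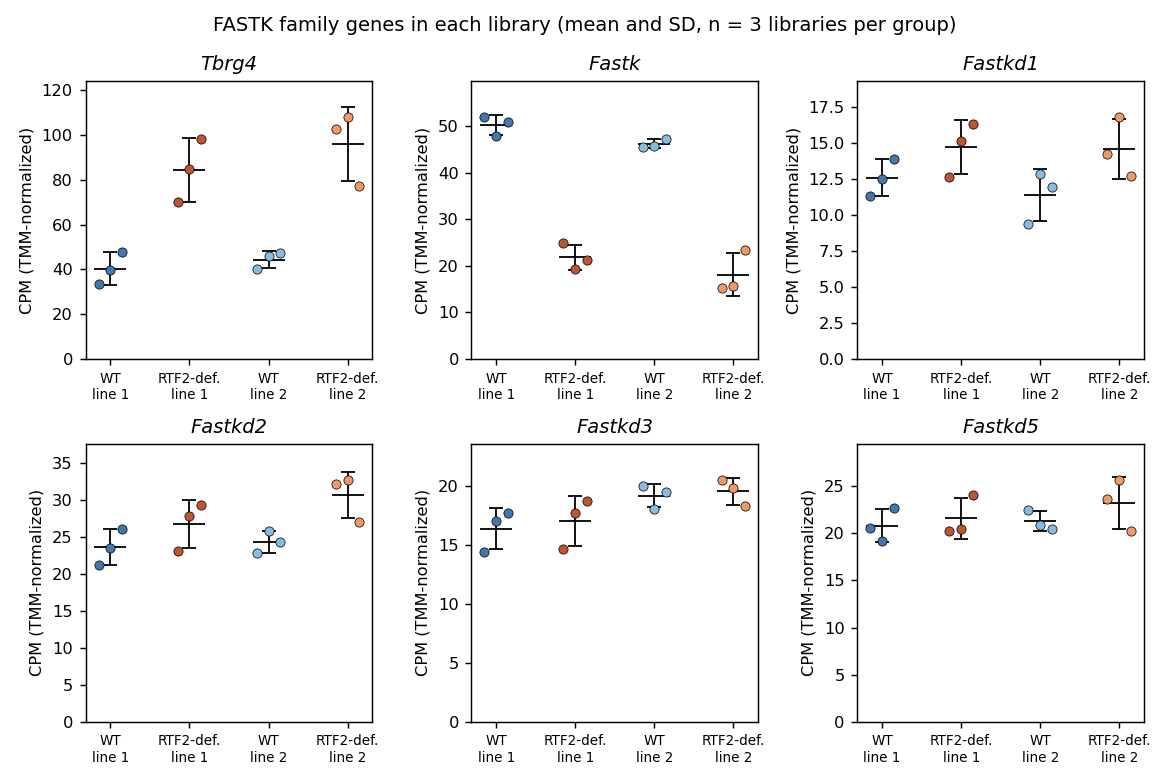
TMM-normalized CPM (y axis, from 0, scaled apart for each gene) of the 6 FASTK family genes by group (x axis), each point 1 library, with the mean and SD of 3 libraries as a bar and whiskers. Tbrg4 separates the genotypes upward (33.4 to 48.0 against 69.9 to 108 CPM) and Fastk downward (45.5 to 52.0 against 15.3 to 24.8 CPM), while the other 4 genes overlap between genotypes.

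Tbrg4 is host to a small nucleolar RNA, Snora5c, an H/ACA RNA of the kind that guides pseudouridylation, which lies in intron 4 of the full-length coding transcripts of Tbrg4. It is shown because it has a row of its own in the count table and shares the host's transcription unit, and capitals mark the ACA box near its 3′ end.
Snora5c, chr11:6620319-6620454, minus strand: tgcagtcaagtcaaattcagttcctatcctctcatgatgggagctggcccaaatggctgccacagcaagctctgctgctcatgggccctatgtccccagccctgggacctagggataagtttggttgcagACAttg
Snora5c had 2, 5 and 8 reads in WT line 1 and 12, 18 and 24 reads in RTF2-deficient line 1. In line 2 it had 5, 9 and 7 reads in WT and 18, 31 and 18 reads in RTF2-deficient MEFs. Every RTF2-deficient library was above every WT library, at a level between 0.287 and 0.796 CPM against 0.0478 and 0.198 CPM. The log2 fold change was 1.79 (standard error 0.330) over both lines, 1.82 in line 1 and 1.77 in line 2, and as the gene lies within Tbrg4 no test is given. Reads of Snora5c amounted to 0.143% to 0.402% of those of Tbrg4 in WT line 1. In RTF2-deficient line 1 they amounted to 0.410% to 0.596%, so the ratio of the small RNA to its host did not overlap there. In line 2 it was 0.271% to 0.432% in WT and 0.421% to 0.737% in RTF2-deficient libraries, which overlapped. With 2 to 31 reads of Snora5c per library, these ratios carry a large counting error. In GENCODE, 127 bases of Snora5c also lie in an exon of a Tbrg4 transcript of the retained intron type. The ratio is therefore not one between separate features. In these counts, reads of the mature small RNA, of the intron around it and of that exon cannot be told apart. The second small RNA that RefSeq places in Tbrg4, Gm24313, has no row in the count table, and its sequence matched that of Snora5c at 71.6% of aligned positions.

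Fastk moved the opposite way and fell in both lines, to 0.435 of its WT level in line 1 and 0.392 in line 2. In WT line 1 the libraries had 52.0, 47.9 and 51.0 CPM, and in RTF2-deficient line 1 they had 24.8, 19.5 and 21.3 CPM. In WT line 2 the libraries had 45.5, 45.9 and 47.4 CPM, and in RTF2-deficient line 2 they had 15.3, 15.8 and 23.4 CPM. The highest RTF2-deficient library lay well under the lowest WT library, with 614 to 1040 reads against 1932 to 2175. The log2 fold change over both lines was -1.28 (adjusted p = 1.63e-05, edgeR quasi-likelihood test, Benjamini-Hochberg method), with a standard error of 0.104 and a ratio of 0.413. By that test it was -1.20 in line 1 (adjusted p = 0.00189, standard error 0.150) and -1.35 in line 2 (adjusted p = 0.000371, standard error 0.151). Among all genes 13.2% passed over both lines, 3.2% in line 1 and 12.5% in line 2. Higher calls made up 4.98% and lower calls 8.18% over both lines, and 1.22% of genes were lower by more than 1 on the log2 scale, as Fastk was. Of the genes tested, 179 had a more negative value over both lines. With the 3 libraries of each group summed, which leaves 4 samples for 3 terms, the log2 fold change was -1.27 and the adjusted p was 0.102.

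The genotypes thus differed in the balance of the pair, which restates the changes of the 2 genes and is no further result. The ratio of Tbrg4 to Fastk CPM was 0.644, 0.831 and 0.940 in WT line 1 and 0.879, 1.0 and 0.996 in WT line 2. It was 2.82, 4.37 and 4.61 in RTF2-deficient line 1 and 6.74, 6.85 and 3.29 in RTF2-deficient line 2. No RTF2-deficient library overlapped the WT range, as follows from the separation of each gene. Of the summed CPM of the 6 members, not corrected for length, Tbrg4 took 21.9% to 27.6% in WT and 42.3% to 49.3% in RTF2-deficient libraries, and Fastk took 27.1% to 33.96% and 7.21% to 15.02%. The sum over the family was 153 to 179 CPM in WT and 165 to 219 CPM in RTF2-deficient libraries, and these ranges overlapped. As the ratio and both shares contain Tbrg4, they are given without a test.

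Fastkd2, whose protein binds the large ribosomal RNA of mitochondria and is needed to assemble their ribosomes, was slightly higher in RTF2-deficient MEFs, but not past the test. Its libraries had 21.2, 23.5 and 26.2 CPM in WT line 1 and 23.1, 27.9 and 29.4 CPM in RTF2-deficient line 1. In line 2 they had 22.9, 25.9 and 24.3 CPM in WT and 32.1, 32.7 and 27.1 CPM in RTF2-deficient MEFs. The groups overlapped in line 1 and not in line 2, and 14% of all genes were higher without overlap in line 2. The log2 fold change over both lines was 0.26 (standard error 0.0816, adjusted p = 0.0597 by edgeR), with a 95% interval of 0.08 to 0.43. In line 1 it was 0.18 (adjusted p = 0.581 by edgeR) and in line 2 it was 0.33 (adjusted p = 0.0889).

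Fastkd1, which restrains the level of the ND3 messenger RNA, had values of the same kind. Its libraries had 11.4, 12.5 and 13.9 CPM in WT line 1 and 12.7, 15.2 and 16.3 CPM in RTF2-deficient line 1. In line 2 they had 9.38, 12.9 and 11.9 CPM in WT and 14.3, 16.8 and 12.7 CPM in RTF2-deficient MEFs. The groups overlapped in both lines. The log2 fold change over both lines was 0.29 (standard error 0.105, adjusted p = 0.0913 by edgeR), with a 95% interval of 0.06 to 0.52. In line 1 it was 0.22 (adjusted p = 0.604 by edgeR) and in line 2 it was 0.36 (adjusted p = 0.154).

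The calls of Fastkd1 and Fastkd2 lie at the threshold and depend on the fit. With DESeq2 both passed over both lines, Fastkd1 with an adjusted p of 0.0461 and Fastkd2 with one of 0.0210, but DESeq2 called 2702 genes in all where edgeR called 1878. Since same-numbered libraries of line 1 deviated together, line 1 was also fitted alone with the replicate number as a block, a fit added after the data were seen. In this paired fit by edgeR, Fastkd1 (log2 fold change 0.22) and Fastkd2 (0.18) passed with the same adjusted p, 0.0301, and Fastk passed with 7.06e-06. The same fit raised the number of genes past the test in line 1 from 456 to 3985, so the members' calls in it are to be read against that number. Leaving out replicate 1 of RTF2-deficient line 1 brought both past edgeR's test over both lines, Fastkd1 at an adjusted p of 0.0496 and Fastkd2 at 0.0195, with 1960 genes called in all. Fastkd2 alone also passed when replicate 3 of WT line 1 (adjusted p = 0.0361 by edgeR) or replicate 3 of RTF2-deficient line 2 (0.0420) was left out, with 1767 and 1974 genes called.

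Fastkd5 and Fastkd3 differed little between genotypes. Fastkd5, which is needed to mature precursors that no transfer RNA flanks, had 19.2 to 22.7 CPM in the WT libraries and 20.2 to 25.7 CPM in the RTF2-deficient libraries. Its log2 fold change over both lines was 0.09 (standard error 0.0741, adjusted p = 0.462 by edgeR), with a 95% interval of -0.07 to 0.25. By line it was 0.05 in line 1 (adjusted p = 0.906 by edgeR) and 0.12 in line 2 (adjusted p = 0.497). Fastkd3, which is needed for full activity of cytochrome c oxidase, had 14.4 to 19.96 CPM in WT and 14.6 to 20.5 CPM in RTF2-deficient libraries. Its log2 fold change was 0.04 (standard error 0.0752, adjusted p = 0.754 by edgeR), with a 95% interval of -0.12 to 0.21. By line it was 0.06 in line 1 (adjusted p = 0.902 by edgeR) and 0.03 in line 2 (adjusted p = 0.906). For both genes the intervals did not reach the values of Tbrg4 or Fastk, but they measure the spread between libraries and not between embryos. The counts of Fastkd5 are also uncertain, as it shares exonic bases with Ubox5. Taking the 5 tested members, 1 passed over both lines, 1 in line 1 and 1 in line 2, and in each case it was Fastk.

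**Figure D2:**
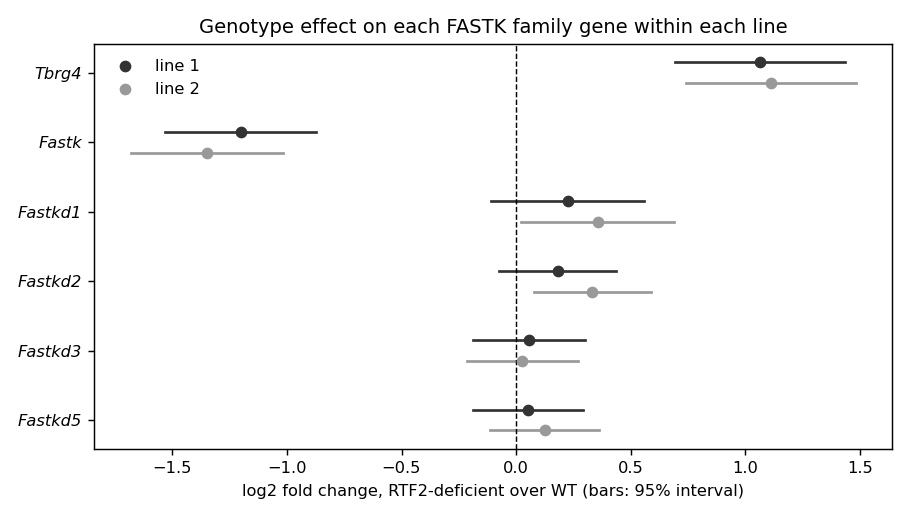
Log2 fold change, RTF2-deficient over WT (x axis), of each FASTK family gene (y axis), with line 1 in black and line 2 in grey, and bars for the 95% interval. Tbrg4 lies near 1.06 and 1.11, Fastk near -1.20 and -1.35, and the intervals of both lines overlap for every gene.

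The effect of genotype did not pass a test of a difference between the lines for any of the 5 members tested. The difference in log2 fold change, line 2 minus line 1, was -0.15 for Fastk (95% interval -0.61 to 0.31), 0.13 for Fastkd1 (-0.34 to 0.60) and 0.15 for Fastkd2 (-0.21 to 0.51). It was -0.03 for Fastkd3 (-0.37 to 0.32) and 0.07 for Fastkd5 (-0.27 to 0.41). The lowest adjusted p among these 5 was 0.972 in edgeR's test, none had an unadjusted p under 0.05 with edgeR or DESeq2, and 1.29% of all genes passed. For Tbrg4 the difference was 0.05, with an interval of -0.47 to 0.57, as a description. The intervals leave room for differences of up to 0.61 in size for Fastk.

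Between the WT lines, a comparison on which no member was chosen, 14% of genes and 0 of the 6 members passed the test. None of the 6 had an unadjusted p under 0.05 with edgeR or DESeq2. For so few genes, 0 calls is near the share of all genes. As WT line 1 had Xist and WT line 2 had Ddx3y, the embryos' sex and the line cannot be told apart here. Tbrg4 differed by 0.13 on the log2 scale, WT line 2 over WT line 1 (standard error 0.167, adjusted p = 0.66 by edgeR), and Fastk by -0.12 (standard error 0.148, adjusted p = 0.654). Fastkd3 had the largest value, 0.23 (standard error 0.111, adjusted p = 0.21 by edgeR), with a 95% interval of -0.02 to 0.47. The values of the others were 0.04 for Fastkd2, 0.03 for Fastkd5 and -0.14 for Fastkd1. With the replicate number as a block in a fit on the WT libraries alone, again 0 of 6 passed in edgeR, with adjusted p-values of 0.349 for Tbrg4 and 0.289 for Fastk.

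Within groups, the library with the highest score for interferon-stimulated genes was often the lowest or the highest for a member. The score, the median log2 CPM of 12 listed interferon-stimulated genes, was highest in replicate 1 of WT line 1 (4.45, against 1.3 and 2.51), of WT line 2 (9.20, against 5.10 and 7.15) and of RTF2-deficient line 1 (2.47, against 1.12 and 1.55). In RTF2-deficient line 2 it was highest in replicate 3 (7.59, against 2.17 and 3.56). In all 4 groups Tbrg4, Fastkd1 and Fastkd2 were each lowest in exactly that library, as were 15.7% of all genes tested. The levels of these genes did not follow the score beyond that library. Of the other libraries of each group, the one with the higher score had more Tbrg4 in all 4 groups, and more Fastkd1 and more Fastkd2 in 3 of the 4. Fastk was highest in the library of highest score in 3 groups, both RTF2-deficient groups among them, and lowest in it in WT line 2, and 31% of all genes were highest in it in at least 3 groups. Of the other libraries of each group, the one with the higher score also had more Fastk in all 4 groups. Fastk therefore rose with the score through all libraries of those 3 groups. The share of all genes that did so was not counted. The score itself ran from 1.3 to 9.20 in WT and from 1.12 to 7.59 in RTF2-deficient libraries, and none of the 12 genes passed the test of genotype in edgeR or DESeq2, with 0 at an unadjusted p under 0.05 in edgeR, 1 in DESeq2 and a median log2 fold change of -1.48. Without the 4 libraries of highest score, a setting added after the scores were seen, the log2 fold change over both lines was 1.12 for Tbrg4 and -1.43 for Fastk (adjusted p = 7.66e-05 by edgeR). Fastkd1 (0.29, adjusted p = 0.0452) and Fastkd2 (0.29, adjusted p = 0.0198) then passed in edgeR's test over both lines, with 2156 genes called in all against 1878 with all libraries. In line 1 the values without them were 1.06 for Tbrg4 and -1.28 for Fastk, and in line 2 they were 1.18 and -1.59. Any part of the interferon response in the members' levels was not tested beyond this.

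**Figure D3:**
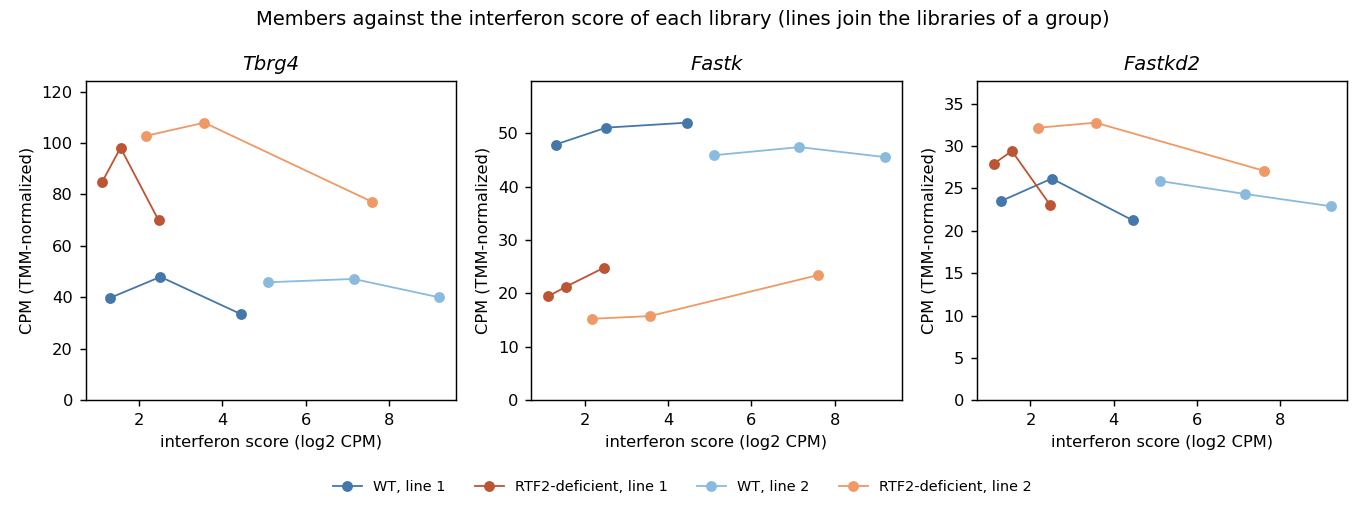
TMM-normalized CPM (y axis, from 0) of Tbrg4, Fastk and Fastkd2 against the interferon score of each library (x axis, log2 CPM), each point 1 library, with lines joining the 3 libraries of a group. In each of the 4 groups the library of highest score has the lowest Tbrg4 and Fastkd2, and for Tbrg4 and Fastk the genotypes stay apart at all scores.

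Per length, Fastk and Tbrg4 were the most abundant members in WT MEFs. Per kb of exon, taken over the union of annotated exons, Fastk had 11.5 ± 0.491 CPM (SD, n = 3) in WT line 1 and 10.6 ± 0.226 CPM in WT line 2. Tbrg4 had 10.9 ± 1.97 and 12 ± 1.03 CPM per kb, so the order of the pair changed between the lines within their spread. Fastkd5 followed with 6.90 ± 0.581 and 7.06 ± 0.344, Fastkd2 with 4.02 ± 0.419 and 4.15 ± 0.253, Fastkd3 with 3.14 ± 0.330 and 3.67 ± 0.191 and Fastkd1 with 2.15 ± 0.218 and 1.95 ± 0.311 CPM per kb (SD, n = 3 each). In both WT lines the libraries of Fastkd5, Fastkd2, Fastkd3 and Fastkd1 did not overlap between neighbours in this order.

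In RTF2-deficient MEFs the order per kb of exon was another. Tbrg4 stood alone at the top with 22.8 ± 3.82 CPM per kb in line 1 and 25.95 ± 4.46 in line 2 (SD, n = 3 each). Fastkd5 was next with 7.16 ± 0.723 and 7.70 ± 0.903. Fastk, at 4.999 ± 0.626 and 4.15 ± 1.05 CPM per kb, had dropped into the range of Fastkd2, at 4.56 ± 0.563 and 5.22 ± 0.530, and the libraries of these genes overlapped in both lines, as did those of Fastk and Fastkd3 in line 2. Fastkd3 (3.26 ± 0.412 and 3.74 ± 0.217) and Fastkd1 (2.52 ± 0.322 and 2.49 ± 0.352) were the lowest by their means. Part of this order depends on the annotation of length. Per kb of the longest coding transcript in place of the exon union, Fastkd3 exceeded Fastkd2 in all 4 groups by its mean, as in WT line 1 with 6.75 against 5.27 CPM per kb. It also exceeded Fastkd5 in WT line 2 (7.91 against 7.06 CPM per kb) and RTF2-deficient line 2 (8.06 against 7.70), and lay just under it in WT line 1 (6.90 for Fastkd5) and RTF2-deficient line 1 (7.02 against 7.16).

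The genes around the members were examined because reads can be shared between neighbours. Fastk ends within 90 bases of Slc4a2, an anion exchanger on the other strand, in RefSeq, and in GENCODE 1141 of its exonic bases overlap that gene. Slc4a2 had 3995 to 6175 reads per library and differed by -0.18 on the log2 scale (adjusted p = 0.114 by edgeR, standard error 0.0682), which did not pass. Tmub1, whose 3′ end lies 167 bases from the start of Fastk, had a value of -0.12 (adjusted p = 0.462 by edgeR). As the use of strand in counting is not given in the sources used here, reads of Fastk and Slc4a2 in the overlap cannot be told apart. Of the 15 transcripts that GENCODE lists for Fastk, 7 are of the retained intron type and 3 are protein coding, which the gene's total count does not separate.

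Fastkd5 lies wholly within the span of Ubox5, a ubiquitin ligase gene on the same strand, and shares 1966 exonic bases with it, so its counts are uncertain. Ubox5 had 299 to 410 reads per library and differed by 0.10 on the log2 scale (adjusted p = 0.404 by edgeR, standard error 0.0743), which did not pass. Fastkd3 overlaps the start of Mtrr, the methionine synthase reductase gene transcribed the other way, by 3 bases, and Mtrr had a value of 0.03 (adjusted p = 0.817 by edgeR). Beside Tbrg4, Nacad, which lies 9538 bases away on the same strand, was lower in RTF2-deficient MEFs, with 12.9 to 33.4 CPM in WT and 6.52 to 13.7 CPM in RTF2-deficient libraries, ranges that overlapped over both lines and not within either. Its log2 fold change was -1.07 (standard error 0.189, adjusted p = 0.00317 by edgeR), opposite in sign to that of Tbrg4, and it passed in line 1 (-1.37, adjusted p = 0.0122 by edgeR) and not in line 2 (-0.77, adjusted p = 0.0656). The difference of its effect between the lines did not pass (adjusted p = 0.760 by edgeR). Wap, on the other side of Tbrg4, had no read. The other tested neighbours, Klhl41, Ppig and Lzts3, lay between -0.10 and 0.20, and none passed.

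**Figure D4:**
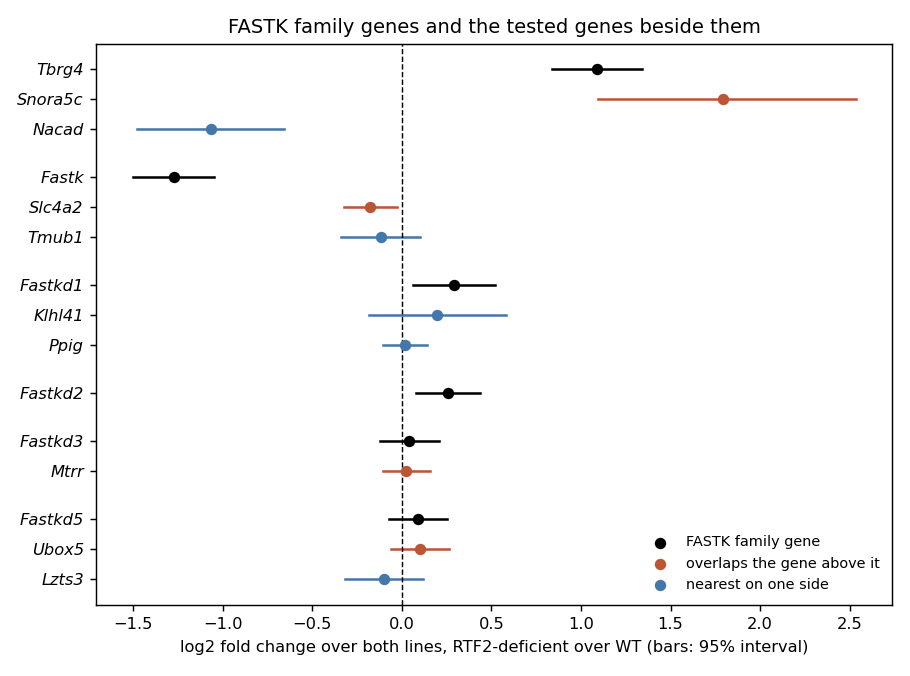
Log2 fold change over both lines, RTF2-deficient over WT (x axis), of each FASTK family gene (black), of genes that overlap it (red) and of its nearest protein-coding genes (blue), with bars for the 95% interval. Of the protein-coding neighbours plotted, Nacad lies farthest from 0, at -1.07, and the small RNA within Tbrg4 lies at 1.79.

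Other nuclear genes of mitochondrial RNA metabolism passed the test about as often as all genes did. In 5 lists that hold 66 genes, all of them tested, 2 passed the test as higher and 6 as lower over both lines, which is 12.12% against 13.2% of all genes (4.98% higher and 8.18% lower). None of the 66 reached a log2 fold change beyond 1, but only 246 of all 14263 genes tested passed with a change of that size. Their median was -0.01, with 0.00 over all genes. Their log2 fold changes ran from -0.72 to 0.40, and that of Fastk, at -1.28, lay below this range. The lists were written with earlier results of these data known.

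Of the factors of transcription and replication of mitochondrial DNA, 2 of 15 fell, namely Polrmt, the mitochondrial RNA polymerase, by 0.36 on the log2 scale (adjusted p = 0.0044 by edgeR) and Top1mt, a topoisomerase, by 0.31 (adjusted p = 0.00846). Of 12 genes of stability, polyadenylation and decay, 2 fell, Endog, which encodes endonuclease G, by 0.72 (adjusted p = 0.00229 by edgeR) and Angel2 by 0.17 (adjusted p = 0.0343). Of 19 genes of RNA granules and ribosome assembly, 2 rose and 2 fell. Eral1, a GTPase that binds the small ribosomal RNA, rose by 0.40 (adjusted p = 0.000173 by edgeR) and was past the test in both lines, and Ybey, an RNA nuclease of ribosome assembly, rose by 0.33 (adjusted p = 0.0304). Rpusd3, a pseudouridine synthase, fell by 0.44 (adjusted p = 0.0176 by edgeR), and Mrm3, a ribosomal RNA methyltransferase, fell by 0.32 (adjusted p = 0.0117). In line 1 alone the adjusted p-values of the 6 lower factors ran from 0.0565 for Endog to 0.278 for Angel2 in edgeR's test and did not pass, at log2 fold changes from -0.72 for Endog to -0.18 for Angel2. In line 2 alone Polrmt, Endog and Mrm3 passed as lower. Of the higher factors, Ybey passed in line 1 (adjusted p = 0.0485 by edgeR) and not in line 2 (0.313). None of 8 genes of RNA cleavage and transfer RNA ends and none of 12 genes of translation passed in edgeR's test. At an unadjusted p under 0.05 they held 1 and 2 genes with edgeR, and DESeq2 called 1 in each at an adjusted p under 0.05. No gene of the 66 differed between the lines in its effect at an adjusted or unadjusted p under 0.05 with edgeR or DESeq2. Lrpprc, which with Slirp protects mitochondrial messenger RNAs, had a value of 0.15 that did not pass (adjusted p = 0.173 by edgeR).

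**Figure D5:**
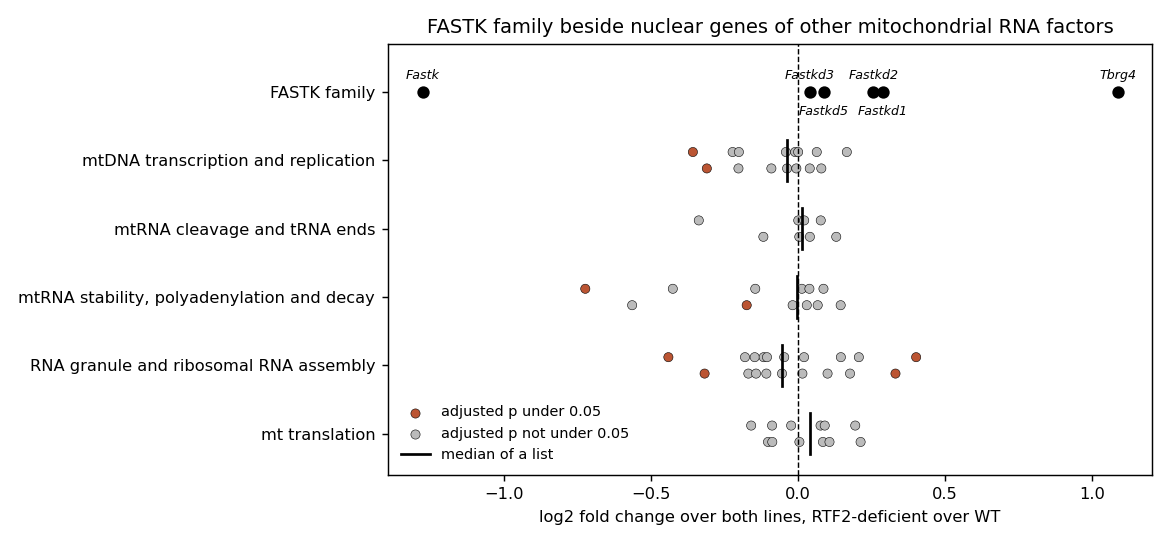
Log2 fold change over both lines, RTF2-deficient over WT (x axis), of the FASTK family (top row, black, named) and of 66 genes in 5 lists of other mitochondrial RNA factors (y axis), with red for an adjusted p under 0.05, grey for the rest and a vertical bar for the median of a list. The 66 factors span -0.72 to 0.40 and Fastk lies at -1.28, while Tbrg4, chosen by its value in this comparison, lies at 1.09.

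The genes whose pattern over the 12 libraries was most like that of Tbrg4 were named by Pearson's r of log2 CPM, among 9275 genes with a mean of at least 10 CPM. The values are a description, since the libraries share groups and genotype. The 5 highest were Glyr1 (r = 0.984), Ppie (0.969), Surf6 (0.964), Eral1 (0.961) and Krr1 (0.960), all with a smaller log2 fold change than Tbrg4, between 0.21 and 0.48. The 5 lowest were Zer1 (r = -0.993), Map4k2 (-0.989), Mknk1 (-0.987), R3hdm4 (-0.986) and Gmppa (-0.981), with log2 fold changes of -1.20, -1.11, -0.63, -0.77 and -1.50. Fastk had an r of -0.968 with Tbrg4, Fastkd2 of 0.876, Fastkd1 of 0.789, Fastkd5 of 0.566 and Fastkd3 of 0.398. Eral1 was also among the mitochondrial RNA factors that rose. As its rise and its r both draw on the difference between genotypes, they are not separate results.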

How the data were processed

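RNA of 12 libraries of WT and RTF2-deficient MEFs was analysed from the deposited table. The authors deposited raw counts, whole numbers of reads per gene and library by Entrez Gene number, not normalized. HTSeq and mm10 stand in the submitters' processing notes, but Salmon with tximport in the study's methods. Which tool counted, and whether it used strand, is therefore not settled. Sample columns without a sample of the series numbered 0. RefSeq's annotation of GRCm38 gave symbols for 24045 of 24100 identifiers, and GENCODE M21 gave exons.

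Counts were analysed in R 4.3.3 with edgeR 4.0.16: filterByExpr on the 4 groups, TMM, then glmQLFit and glmQLFTest, the model holding line and genotype, or contrasts in a layout of the 4 groups, and Benjamini-Hochberg adjustment over all 14263 genes. A gene passed at an adjusted p under 0.05. Log2 CPM used a prior count of 2. The members and lists were chosen with earlier results of these data known. Named genes were the members, Rtf2, overlapping and nearest genes, up to 2 raised and 2 lowered genes of each list past the test, and the 5 highest and 5 lowest genes by r with Tbrg4; other list genes were named after their values were seen.

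Alternatives were DESeq2 1.42.0, RLE normalization, no filter, a replicate block, no line term, summed triplicates, each pair of groups alone and each library left out. The titles number the replicates. Deviations of same-numbered libraries from their group means correlated at 0.842, 0.768 and 0.804 between the groups of line 1. Between the WT groups they correlated at 0.592, 0.541 and 0.448. A replicate block entered only alternative fits, among them those of line 1 alone and of the WT libraries alone. The main tests, that of line 1 included, were unpaired. With RTF2-deficient line 2 same-numbered libraries did not deviate together, at -0.762, 0.216 and -0.400 within line 2. Between libraries of 1 group, chi-square divided by its degrees of freedom was 21.7 to 191, more than sampling noise gives. On simulated counts of 14122 genes, the genotype test recovered 50%, 78%, 86% and 96% of genes changed by 0.5, 1, 1.5 and 3 on the log2 scale, with 5 false calls of 160. The simulated libraries were independent, with no difference between lines and no deviation shared by same-numbered libraries. These rates therefore need not hold for the data. With 39360167 to 44695002 counts per library, 3 counts amount to at most 0.0762 CPM, which covers counting error only.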

Additional observations from a re-analysis of the deposited data

How the results depend on the processing

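Fastk kept its direction over both lines, in line 1 and in line 2 under every alternative run. Over both lines its log2 fold change ranged from -1.43 to -1.22, and it lost its call when triplicates were summed (adjusted p = 0.102 by edgeR, where 0 genes of the table pass, 2737 have an unadjusted p under 0.05, and DESeq2 on the 12 libraries calls 2702). Tbrg4 ranged from 1.04 to 1.16 over both lines, from 0.93 to 1.20 in line 1 and from 1.03 to 1.26 in line 2, with each library left out as well as under the other alternatives.

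Among the 5 tested members, 1 passed over both lines, 3 with DESeq2, 3 without the libraries of highest interferon score, 0 of summed triplicates (3 at an unadjusted p under 0.05) and 1 to 3 with a library left out. The whole table's calls over both lines rose as well, from 1878 to 2702 with DESeq2 and to 2156 without those libraries. The members' counts are to be read against these numbers. In line 2, 1 passed, 2 with DESeq2, 2 without the libraries of highest score and 1 to 2 with a library left out, the second without RTF2-deficient line 2 replicate 3. In each of these settings the second member was Fastkd2. The whole table's calls in line 2 rose too, from 1776 to 2586 with DESeq2. They were 2985 without the libraries of highest score and 2372 without RTF2-deficient line 2 replicate 3. In line 1, 1 passed, and 3 in the fit of line 1 alone with the replicate block. With the block in the fit of all 12 libraries, where the numbers do not pair RTF2-deficient line 2, the members' calls did not change. Fastk had an adjusted p of 7.11e-05 over both lines, and the block changed the factors called higher from 2 to 1. Members are named beside their results.

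Over all genes, 1878 passed over both lines, 1227 without the line term, 0 with triplicates summed and 1158 to 1974 with a library left out, the lowest without RTF2-deficient line 2 replicate 2. In line 1, 456 passed, 852 with DESeq2, 3985 with the block in line 1 alone and 192 to 480 with a library left out. Each of the 6 libraries of line 1 lowered the count, WT replicates 1, 2 and 3 to 250, 201 and 277 and RTF2-deficient replicates 1, 2 and 3 to 292, 192 and 225. In line 2, 1776 passed, 969 in line 2 alone, 2985 without the libraries of highest score and 813 to 2372 with a library left out, with 1182 without WT replicate 3, 947 without RTF2-deficient replicate 1 and 813 without replicate 2. For the difference between lines, 184 passed, 409 with DESeq2, 312 without the libraries of highest score and 66 to 164 with a library left out, every one of the 12 lowering the count. Between the WT lines, 1998 passed, 1258 in the WT libraries alone and 1260 to 2221 with a library left out, the lowest without WT line 1 replicate 2. The cause of these differences was not tested.

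Of 66 mitochondrial RNA factors, 2 were higher, 4 with DESeq2, 1 with the block, 1 without the line term, 0 with triplicates summed, 1 without the libraries of highest score and 1 to 3 with a library left out, and 6 were lower, 0 with triplicates summed, where 11 of the 66 had an unadjusted p under 0.05. With a library left out the factors called higher numbered 1 without WT line 1 replicate 1 or 2, RTF2-deficient line 1 replicate 2 or 3, or RTF2-deficient line 2 replicate 2.

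Small values changed sign, none of them past the test. With a library left out, Fastkd3 ranged from -0.0279 to 0.15 in line 1, from -0.0133 to 0.0894 in line 2 and from -0.12 to 0.0629 in the difference between lines. Fastkd5 ranged from -0.0434 to 0.12 in line 1 and from -0.0398 to 0.0859 between the WT lines, and Fastkd2 from -0.0427 to 0.11 between the WT lines. Without the libraries of highest score the difference between lines of Fastkd3 was 0.0329 and the WT difference of Fastkd5 was -0.0179. With the longest coding transcript, levels in WT line 1 were 17.2 CPM per kb for Tbrg4, 16.4 for Fastk, 4.40 for Fastkd1, 5.27 for Fastkd2 and 6.75 for Fastkd3. Of the 10 genes named by likeness to Tbrg4, 4 were named again by Spearman's rho and 6 to 10 with a library left out, the lowest without RTF2-deficient line 2 replicate 3.

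Each member had at least 432 reads per library, whereas Snora5c had 2 to 31, so its values carry a large counting error. Replicates are technical, so the tests do not measure the spread between embryos. In line 2 the sex of the embryos and the genotype cannot be told apart, nor can sex and line between the WT groups. Reads shared between overlapping genes were not resolved.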
